A study of Homo sapiens with 6 samples.

Results

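The genes described here are the 77 protein-coding (mRNA) rows of the count table whose symbols begin with MRPL or MRPS followed by a digit, the naming scheme of mitochondrial ribosomal proteins. The table held 54261 rows in all, of which 20643 were mRNA rows. By symbol, 48 members belong to the large subunit (MRPL) and 29 to the small subunit (MRPS). That choice used only the row type and the symbol, although earlier results of these data were known when it was made. RNA came from A549, an established human lung adenocarcinoma cell line grown with fetal bovine serum. One group of 3 libraries (si-SNHG17) came from cells in which the long noncoding RNA SNHG17 was knocked down by an siRNA, and the other group of 3 (si-NC) from cells given a control siRNA. The labels give neither the siRNA dose nor the time after treatment, and do not name separate cultures. The p-values therefore rest on the spread among libraries, which could be purely technical. The comparison asks which transcripts differ once SNHG17 is lowered.

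Mitochondria keep a small genome of their own and translate its messages, all of which encode subunits of the respiratory chain and ATP synthase, on a dedicated ribosome. Its ribosomal RNAs are transcribed from the mitochondrial genome, whereas its proteins are encoded in the nucleus, translated in the cytosol and imported. Some of these proteins have bacterial counterparts and others are found only in mitochondria. The small subunit reads the message and the large subunit joins the amino acids, and the nascent chains leave through a tunnel that faces the inner membrane.

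SNHG17 itself was measured at 7.82, 8.39 and 11.3 CPM (counts per 1000000 of the scaled library) after knockdown and at 38.7, 36.2 and 51.4 CPM in the controls. The knockdown libraries were all below the controls, and the group means were 9.16 ± 1.86 and 42.1 ± 8.16 CPM (SD, n = 3). The log2 fold change was -2.21, with an adjusted p of 2.84e-07 by edgeR's quasi-likelihood test, and the exact two-sided permutation test gave p = 0.1, the smallest that 3 against 3 libraries allow. Total counts ran from 8643076 to 12477214 per library, and 3 counts, the most that a count of 0 allows, came to between 0.240 and 0.342 CPM, for counting error only. Mitochondrially encoded genes took 4.16% to 4.53% of the counts in si-SNHG17 and 7.25% to 8.07% in si-NC. Of 10 epithelial markers 7 were tested, 1 was higher and 4 were lower, with summed levels of 6077 to 6202 CPM in si-SNHG17 and 11238 to 12385 CPM in si-NC. The lung surfactant gene SFTPB had no counts. Among the immune markers, PTPRC, CD3D, CD3E, MS4A1 and NKG7 had no count in any library. The immune list summed to 490 to 588 CPM in si-SNHG17 and 207 to 291 CPM in si-NC. Most of that sum was CD68, a lysosomal protein of macrophages, which rose from 197 ± 41.4 to 512 ± 48.8 CPM. CD14, a monocyte receptor, fell from 36.1 ± 6.54 to 19.6 ± 1.55 CPM. Of 10 stromal and endothelial markers, COL1A2 and COL3A1 had no counts. That list summed to 67.3 to 79.0 CPM in si-SNHG17 and 75.3 to 91.6 CPM in si-NC. Its highest means in si-SNHG17 and si-NC were those of ACTA2 (31.0 and 34.4 CPM), COL1A1 (25.3 and 24.3) and THY1 (15.5 and 21.9). THY1 passed as lower (edgeR adjusted p = 0.0149). The part of these shifts in the results below was not tested.

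Mitochondrial ribosomal protein messages were, on balance, modestly lower after SNHG17 knockdown. All 77 members had enough counts to be tested, and none was at 0 in any library. By edgeR's quasi-likelihood test with Benjamini-Hochberg adjustment over all 15614 genes tested (threshold 0.05), 26 members (33.8%) fell, 3 (3.90%) rose and 48 did not pass. Across all genes tested, 39.1% passed, 19.6% upward and 19.6% downward. Among the 12136 mRNA rows tested, 23.1% rose and 20.1% fell. The median log2 fold change (si-SNHG17 minus si-NC) of the members was -0.14, with quartiles of -0.31 and 0.05, against 0.01 over all genes and 0.04 over mRNA rows. Of the 77 members, 52 (67.5%) had a negative log2 fold change. The differences were small: 76 of 77 were under 2-fold, and the median standard error of a member's log2 fold change was 0.105. In bulk RNA of this kind, fewer cells expressing a gene and less of its RNA per cell cannot be told apart.

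The count of lower members rested in part on 1 library. Without si-SNHG17 replicate 1, 10 members passed as lower (13.0% of them, where 15.1% of all genes tested were lower). Leaving out any one of the other libraries gave 18 to 24, and the members' median log2 fold change was negative in all 14 alternative analyses, from -0.10 to -0.18. The 3 higher members became 1 without si-SNHG17 replicate 2 or si-NC replicate 2, and 6 without si-NC replicate 3 or with scaling by library totals alone. The groups did not overlap for 40 members, 33 of them lower in every si-SNHG17 library than in any si-NC library and 7 higher. Over all genes tested, 24.3% were lower without overlap and 25.1% higher without overlap. The 7 were MRPL1, MRPL32, MRPL45, MRPS5, MRPS18A, MRPS30 and MRPS31.

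**Figure D1:**
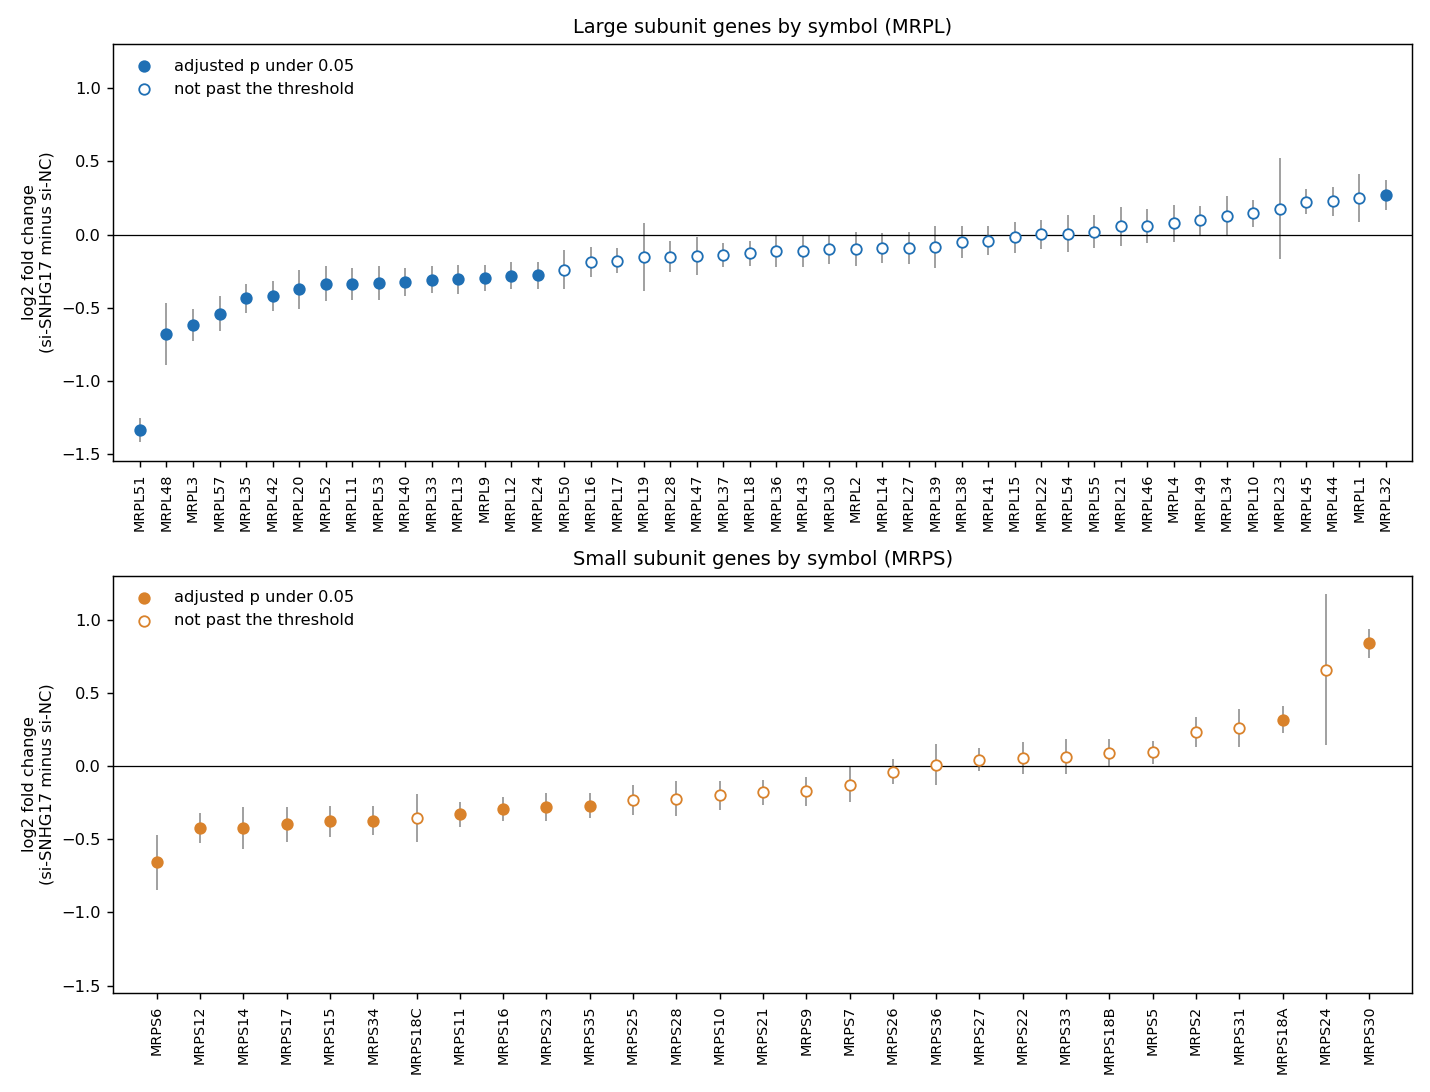
Log2 fold change (si-SNHG17 minus si-NC) of each of the 77 members, with the standard error of the edgeR fit as a vertical line, for the 48 large subunit genes (top) and the 29 small subunit genes (bottom) in order of their value. Filled points passed an adjusted p of 0.05. MRPL51 lies lowest at -1.34 and MRPS30 highest at 0.84, and most of the others lie within 0.5 of 0.

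The subunits were close in their counts, and the difference between them was not tested. In the large subunit 16 of 48 genes fell and 1 rose, with a median log2 fold change of -0.12 and 34 genes below 0. In the small subunit 10 of 29 fell and 2 rose, with a median of -0.18 and 18 genes below 0. Without si-SNHG17 replicate 1, 5 genes of each subunit were lower; without si-SNHG17 replicate 3, 9 of the large subunit were, and without si-SNHG17 replicate 2, 6 of the small subunit. Summed over its genes, the large subunit stood at 2478, 2675 and 2472 CPM after knockdown and at 2693, 2741 and 3047 CPM in the controls. The small subunit sums were 1659, 1701 and 1737 CPM in si-SNHG17 and 1749, 1827 and 1916 CPM in si-NC. For each subunit every knockdown library lay below every control library, although the nearest libraries of the groups were close. The group means were 2542 ± 116 and 2827 ± 192 CPM for the large subunit, and 1699 ± 39.2 and 1831 ± 83.4 CPM for the small subunit (SD, n = 3). The ratio of summed large to summed small subunit counts, which does not depend on library scaling, was 1.49, 1.57 and 1.42 in si-SNHG17 and 1.54, 1.5 and 1.59 in si-NC. These ranges overlapped, and the means, 1.5 ± 0.0750 and 1.54 ± 0.0453, differed by 0.047, which is about the spread between replicates. No test was made of these sums, which are scores over chosen genes.

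**Figure D2:**
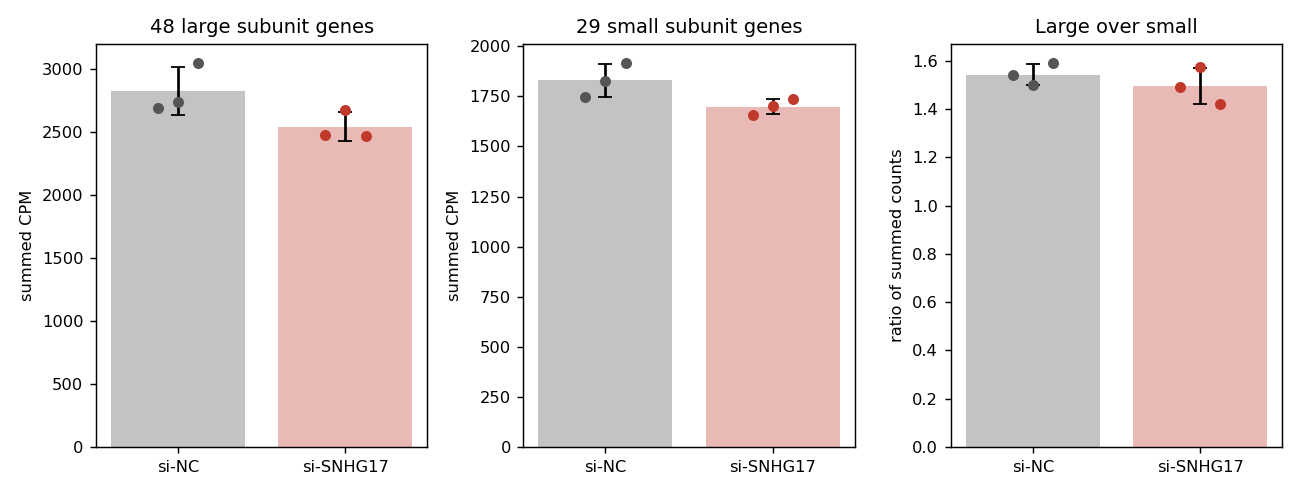
Summed CPM of the 48 large subunit genes (left) and the 29 small subunit genes (middle), and the ratio of the summed counts (right), in each library (points), with bars at the group mean and error bars of 1 SD (n = 3). Both sums are lower in the si-SNHG17 libraries, and the ratios of the groups overlap.

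The symbols do not always give the subunit. MRPS30 and MRPS18A sit in the large subunit of the mature ribosome, and MRPS36 is better known as a component of the 2-oxoglutarate dehydrogenase complex. MRPL42 belongs to the large subunit although it was once listed as a small subunit protein. Assigned by structure, the large subunit had 50 genes, of which 16 fell and 3 rose (median -0.11), and the small subunit had 26, of which 10 fell and none rose (median -0.21). By structure the mean ratio of the sums was 1.69 ± 0.0883 in si-SNHG17 and 1.67 ± 0.050 in si-NC. Both genes that had risen among those named MRPS were thus large subunit genes by structure, although DAP3, a small subunit gene with another kind of name, also rose (below). MRPS36 stood at 16.0, 21.0 and 18.2 CPM in si-SNHG17 and at 16.3, 19.1 and 19.5 CPM in si-NC, with overlapping groups and a log2 fold change of 0.01 (adjusted p = 0.961 by edgeR). Of the 46 members with a bacterial counterpart 16 fell and 1 rose (median -0.16), and of the 30 classed as mitochondria-specific in the structural nomenclature 10 fell and 2 rose (median -0.07). That class includes MRPS18A and MRPS18B, which are related to a bacterial protein.

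MRPL51, a mitochondria-specific protein of the large subunit, showed the largest change of any member. In RefSeq (GRCh38.p14) its gene runs from 6491886 to 6493262 on chromosome 12. It stood at 59.0, 60.7 and 55.3 CPM after knockdown and at 145, 150 and 148 CPM in the controls. The groups were far apart and each was tight, with means of 58.3 ± 2.79 and 148 ± 2.38 CPM, so that 39.5% of the control level remained. This came to -1.34 on the log2 scale (standard error 0.0807, edgeR adjusted p = 3.39e-08). MRPL51 shares exon bases with NCAPD2, a condensin subunit gene on the opposite strand, which itself fell, with 18.3 ± 2.64 against 25.8 ± 4.11 CPM (log2 fold change -0.50, edgeR adjusted p = 0.0156). Whether the counting used strand is not given in the sources used here, so reads from the shared bases cannot be assigned to one gene.

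The next largest falls in the large subunit were those of MRPL48, MRPL3, MRPL57 and MRPL35. MRPL48, a protein of the central protuberance at the top of the subunit, stood at 3.13, 4.39 and 4.22 CPM in si-SNHG17 and at 5.81, 7.0 and 6.09 CPM in si-NC. The groups did not overlap, but the level was low, the log2 fold change of -0.68 had a standard error of 0.211, and the call (adjusted p = 0.0203 by edgeR) was lost without si-SNHG17 replicate 1 (0.0828) or si-NC replicate 2 (0.0848). MRPL3, whose bacterial counterpart reaches towards the peptidyl transferase centre, stood at 23.1, 24.0 and 23.7 CPM against 38.5, 37.3 and 33.1 CPM. Every knockdown library was lower than every control (log2 fold change -0.62, standard error 0.106, adjusted p = 0.000417 by edgeR). MRPL57, a mitochondria-specific protein, stood at 18.5, 20.3 and 19.8 CPM against 27.1, 26.3 and 31.7 CPM, again without overlap (log2 fold change -0.54, edgeR adjusted p = 0.00246). MRPL35, which has a bacterial counterpart, stood at 35.8, 32.0 and 36.9 CPM against 49.0, 44.8 and 47.6 CPM, without overlap (log2 fold change -0.44, edgeR adjusted p = 0.00349). MRPL42 stood at 29.9, 30.8 and 33.5 CPM against 46.0, 41.0 and 39.1 CPM, without overlap (log2 fold change -0.42, edgeR adjusted p = 0.00597).

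The other 10 large subunit genes that fell were MRPL20, MRPL52, MRPL11, MRPL53, MRPL40, MRPL33, MRPL13, MRPL9, MRPL12 and MRPL24, with log2 fold changes from -0.37 to -0.28. MRPL53 kept its call in only 5 of 14 alternative analyses, MRPL20 and MRPL13 in 10 each and MRPL9 in 12. The proteins of the stalk, which receives the translation factors, gave mixed values. MRPL12, the stalk protein that contacts those factors, fell from 122 ± 9.79 to 101 ± 8.56 CPM, and MRPL11, at the base of the stalk, from 46.8 ± 2.28 to 37.0 ± 4.89 CPM. MRPL12 was not past the threshold without si-SNHG17 replicate 1 or 3 or si-NC replicate 1, or with a replicate block, and MRPL11 not without si-SNHG17 replicate 1 or 3 (adjusted p up to 0.12 and 0.128 by edgeR). MRPL10, which holds MRPL12 on the ribosome, had a log2 fold change of 0.14 (edgeR adjusted p = 0.225), with 141, 171 and 148 CPM in si-SNHG17 and 141, 130 and 146 CPM in si-NC. Of other proteins of the central protuberance, MRPL40 fell by 0.32 and MRPL52 by 0.34 on the log2 scale, whereas MRPL38 (-0.05) and MRPL46 (0.06) did not pass. MRPL40 was lost without si-SNHG17 replicate 1 (0.0688). MRPL52 was lost in 5 of 14 alternative analyses, those without si-SNHG17 replicates 1 or 3 or si-NC replicates 2 or 3 and the one scaled by library totals alone (adjusted p up to 0.168). MRPL45, which ties the ribosome to the inner membrane at the tunnel exit, was higher in every knockdown library at 106, 99.4 and 103 CPM against 95.4, 81.9 and 87.1 CPM. Its log2 fold change of 0.22 just missed the threshold (edgeR adjusted p = 0.0508), and its pseudogene MRPL45P2, from which the counting may not have separated it, was higher by 0.72 (edgeR adjusted p = 0.00382). These genes were named for their role, after their values were seen. The 31 large subunit genes that did not pass had log2 fold changes from -0.24 to 0.25, 18 of them below 0.

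In the small subunit the largest falls were those of MRPS6, MRPS12, MRPS14, MRPS17 and MRPS15, all counterparts of bacterial small subunit proteins. MRPS6 stood at 4.07, 4.55 and 4.44 CPM in si-SNHG17 and at 7.06, 6.41 and 7.21 CPM in si-NC, without overlap (log2 fold change -0.66, standard error 0.188, edgeR adjusted p = 0.013). It shares exon bases with SLC5A3, an inositol transporter gene on the same strand. MRPS12, a protein of the decoding centre, stood at 68.6, 75.9 and 72.1 CPM against 87.7, 91.0 and 112 CPM, without overlap (log2 fold change -0.42, edgeR adjusted p = 0.0045). MRPS14 stood at 18.6, 18.4 and 24.3 CPM against 27.8, 23.0 and 30.8 CPM. Here the groups overlapped, since si-SNHG17 replicate 3 lay above si-NC replicate 2, and the call (log2 fold change -0.42, edgeR adjusted p = 0.0323) was lost without any of si-SNHG17 replicates 1 and 2 and si-NC replicates 1 and 3 (0.0719 to 0.123). MRPS17 stood at 22.5, 23.6 and 21.2 CPM against 26.4, 28.4 and 34 CPM, and MRPS15 at 61.8, 60.4 and 74.5 CPM against 76.2, 84.9 and 93.6 CPM. Neither pair of groups overlapped (log2 fold changes -0.40 and -0.38, edgeR adjusted p = 0.0184 and 0.0121). MRPS17 was lost without si-SNHG17 replicate 1 or 3 or si-NC replicate 3 (0.0551 to 0.0726), and MRPS15 without si-SNHG17 replicate 1 (0.0627) or 2 (0.0608). The other 5 that fell were MRPS34, MRPS11, MRPS16, MRPS23 and MRPS35, with log2 fold changes from -0.37 to -0.27. MRPS23 kept its call in only 8 of 14 alternative analyses and MRPS35 in 10. The 17 small subunit genes that did not pass ranged from -0.35 (MRPS18C, edgeR adjusted p = 0.11) to 0.66 (MRPS24).

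Only 3 members rose. MRPS30, a mitochondria-specific protein also known as programmed cell death protein 9, lies on chromosome 5 from 44808947 to 44815514. It stood at 50.8, 51.6 and 50.3 CPM after knockdown and at 27.3, 27.4 and 30.6 CPM in the controls. The groups were well separated, with means of 50.9 ± 0.684 and 28.5 ± 1.88 CPM, a log2 fold change of 0.84 (standard error 0.0979) and an adjusted p of 1.47e-05 by edgeR. MRPS18A, one of 3 human relatives of a single bacterial protein, lies on chromosome 6 from 43671202 to 43687791 and stood at 56.4, 60.1 and 57.2 CPM against 42.8, 46.6 and 49.9 CPM. The groups did not overlap, but the call (log2 fold change 0.32, edgeR adjusted p = 0.0164) was lost when knockdown replicate 2 (0.0605) or control replicate 1 (0.0804) or 2 (0.0536) was left out. MRPL32, which is trimmed by the m-AAA protease of the inner membrane before it joins the ribosome, lies on chromosome 7 from 42932376 to 42937857 and stood at 56.6, 55.4 and 54.6 CPM against 41.6, 44.8 and 51.8 CPM. It also did not overlap, but its adjusted p of 0.0488 (edgeR, log2 fold change 0.27) lay next to the threshold and was past it in only 4 of 14 alternative analyses. Of the 29 members that passed, 11 did so in all 14: MRPL3, MRPL35, MRPL42, MRPL51, MRPL57, MRPS6, MRPS11, MRPS12, MRPS16 and MRPS34, which fell, and MRPS30, which rose. Of these, MRPL42, MRPL51, MRPS6, MRPS11, MRPS12 and MRPS16 share exon bases with another gene, and MRPL3 has a pseudogene row averaging 32 counts. Among the members that rose, MRPL32 and MRPS18A share exon bases too. None of the 14 analyses addressed how such reads were counted.

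**Figure D3:**
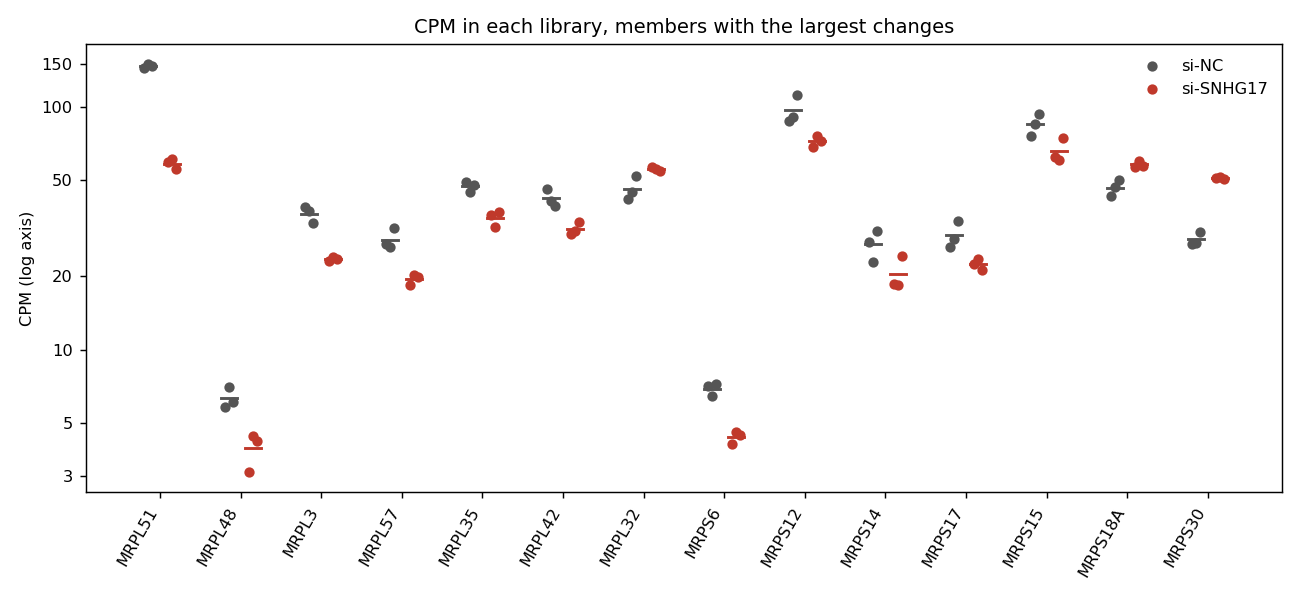
CPM (log axis) in each library of the 14 members with the largest rises and falls named in the text, with a short line at the group mean, for si-NC (grey) and si-SNHG17 (red). MRPL51 and MRPS30 have the widest gaps between the groups relative to their spread, and MRPS14 is the one gene in the plot whose groups overlap.

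Levels differed far more between members than between the groups. Per kilobase of the longest annotated transcript, the large subunit messages with the highest mean over all 6 libraries were MRPL33, at 115 ± 5.39 CPM per kilobase in si-SNHG17 and 143 ± 13.0 in si-NC, and MRPL24, at 113 ± 8.80 and 137 ± 11.8 CPM per kilobase. Both fell (log2 fold changes -0.31 and -0.28, edgeR adjusted p = 0.0188 and 0.0257), but MRPL33 was lost without si-SNHG17 replicate 1 (0.0593) or 2 (0.0796), and MRPL24 without knockdown replicate 1 (0.102) or 3 (0.114) or control replicate 2 (0.0577). MRPL28 was next, at 117 ± 10.2 and 130 ± 19.5 CPM per kilobase, and in si-SNHG17 its mean was the highest of the 3. These 3 genes did not differ from each other in level beyond their spread in si-SNHG17. In the small subunit MRPS26 stood at 103 ± 3.83 and 105 ± 8.87 CPM per kilobase (log2 fold change -0.04, not past the threshold), and MRPS34, which is needed for a stable small subunit, at 89.9 ± 3.52 and 116 ± 16.7 (log2 fold change -0.37, edgeR adjusted p = 0.00915). The lowest were MRPL19, at 0.957 ± 0.167 and 1.07 ± 0.0581 CPM per kilobase, and MRPS24. MRPS24 had 11, 14 and 11 counts in si-SNHG17 and 1, 8 and 13 in si-NC, with 1 control library under 3 counts, a log2 fold change of 0.66 and a standard error of 0.512 (edgeR adjusted p = 0.336). It shares exons with the readthrough gene URGCP-MRPS24, and MRPL19 shares exon bases with GCFC2 on the opposite strand. A longer annotated transcript than the one in use lowers such a level: the transcript taken for MRPL42 is 15582 bases long. Across the 77 members, which share the same 6 libraries, log2 fold change and mean CPM had a Spearman correlation of 0.07.

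Proteins of the mitochondrial ribosome that carry other names moved in both directions. Of 6 tested, CHCHD1 (-0.50, edgeR adjusted p = 0.0107) and AURKAIP1 (-0.37, adjusted p = 0.00691), both of the small subunit, fell. DAP3, the GTP-binding small subunit protein first known for its part in cell death, rose from 146.1 ± 10.4 to 198.2 ± 9.16 CPM (log2 fold change 0.44, edgeR adjusted p = 0.000685). ICT1, a peptidyl-tRNA hydrolase built into the large subunit, was at -0.24 (adjusted p = 0.0691), PTCD3 at -0.14 and GADD45GIP1 at -0.05. Of the 87 ribosomal protein genes of the cytosol (RPL, RPS, RPLP and RPSA), 81 were tested, of which 21 (25.9%) rose and 3 (3.70%) fell, with a median of 0.10. Among mRNA rows tested 23.1% rose, near the share of the cytosolic genes, and 20.1% fell, with a median of 0.04. No test was made between the ribosomal protein families.

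**Figure D4:**
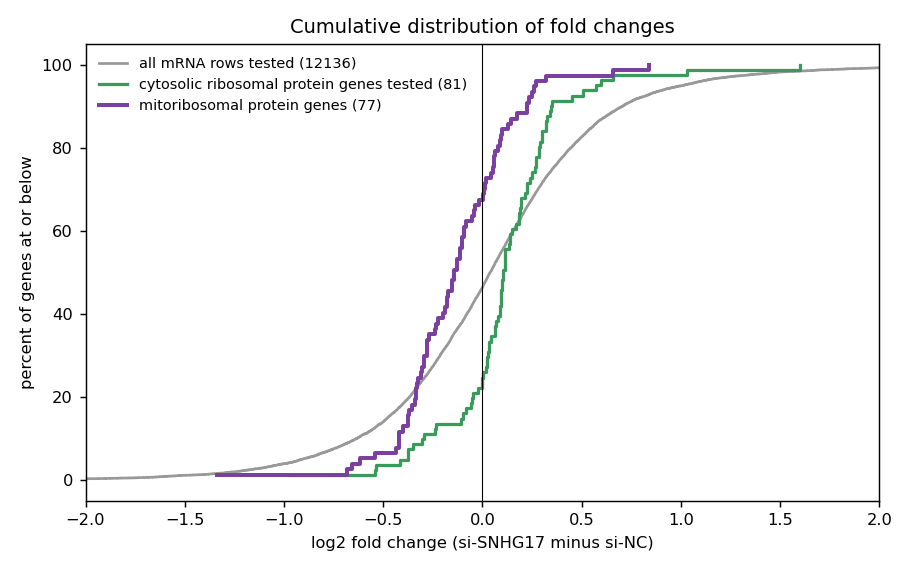
Cumulative percentage of genes at or below each log2 fold change (si-SNHG17 minus si-NC) for the 77 mitochondrial ribosomal protein genes, the 81 cytosolic ribosomal protein genes tested and the 12136 mRNA rows tested, drawn from -2 to 2. The mitochondrial curve lies to the left of the other two around 0, with 67.5% of its genes below 0 against 46.4% of mRNA rows, and is steeper than that of all mRNA rows.

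The genes that work with the mitochondrial ribosome moved in both directions, with some shares called near those over all genes tested (19.6% in each direction). Among 15 translation factors, 3 fell (20%) and 1 rose (6.67%), with a median of -0.02: TACO1, an activator of COX1 translation (-0.91), OXA1L, the insertase that receives nascent chains (-0.67), and the elongation factor GFM1 (-0.52) fell, and the initiation factor MTIF3 rose (0.45), a call lost without si-NC replicate 2 (adjusted p = 0.0762 by edgeR). Among 26 genes of assembly and ribosomal RNA modification, 8 fell (30.8%) and 5 rose (19.2%), with a median of -0.01. MPV17L2, an inner membrane protein needed for assembly, stood at 5.94, 6.63 and 7.98 CPM in si-SNHG17 and at 18.3, 21.8 and 25.7 CPM in si-NC (-1.69, edgeR adjusted p = 3.55e-06), and NGRN (-1.15) and RCC1L (-0.44) fell as well, while the GTPase NOA1 rose (0.58). Among 20 genes of mitochondrial transcription and RNA handling, 6 rose and 6 fell (30.0% each, median 0.18). KIAA0391 (-1.64), the nuclease of mitochondrial RNase P, and HSD17B10 (-1.31), another subunit of that enzyme, fell. TRMT10C, a further subunit of the same enzyme, rose (0.39, edgeR adjusted p = 0.0215). The RNA degradation partners SUPV3L1 (0.56) and PNPT1 (0.50) rose as well. Of 10 transcription regulators of mitochondrial genes, 8 were tested. MYC fell (-0.47, edgeR adjusted p = 0.000614) and GABPA, the DNA-binding part of an ETS factor, rose (0.86, adjusted p = 0.0358), the latter on 10 to 30 counts per library and lost in 9 of 14 alternative analyses.

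The mitochondrially encoded genes, the products and RNA partners of this ribosome, had the median furthest from 0 of these lists: 13 of 15 fell and none rose (median -0.98). COX3 was at -1.53, COX2 at -1.18, ATP6 at -1.16 and ND3 at -0.95. Of the messages only ND1 did not pass, at -0.13 (edgeR adjusted p = 0.173), although its groups did not overlap. The ribosomal RNA of the large subunit (RNR2) fell by 0.62 on the log2 scale, and that of the small subunit (RNR1) was at -0.07 (edgeR adjusted p = 0.513), with 981, 877 and 984 CPM in si-SNHG17 and 1050, 945 and 984 CPM in si-NC.

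**Figure D5:**
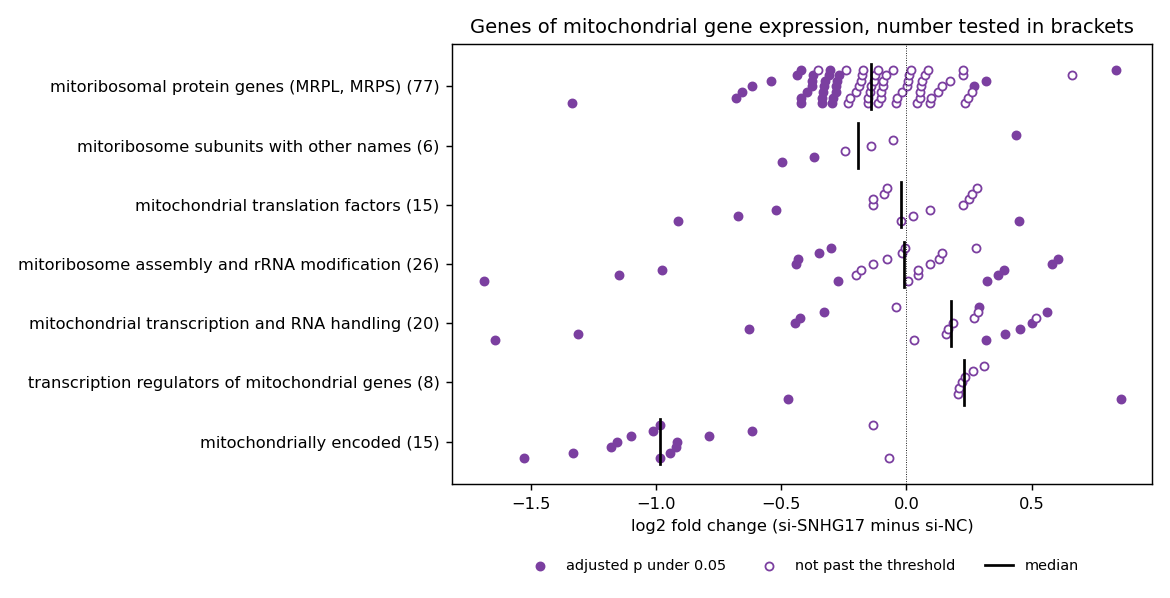
Log2 fold change (si-SNHG17 minus si-NC) of each gene tested in the mitochondrial ribosomal protein family and in 6 lists of genes around it, with the median of each as a vertical line and filled points for an adjusted p under 0.05. The medians of the members and of most other lists lie within 0.25 of 0, and that of the mitochondrially encoded genes at -0.98.

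The members are scattered over the genome, with 76 of 77 matched to RefSeq positions on 21 chromosomes. Many face another gene: 29 members (37.7%) had the start of a coding gene on the opposite strand within 1000 bases of their own, against 17.6% of 11750 mRNA rows tested with a position. In 24 such pairs both genes were tested, and 7 of the partners fell, among them MRPS11, itself a member, and 5 rose. Over all genes tested, 19.6% passed in each direction, and no test was made of these pairs. Both genes fell in 3 pairs, MRPL51 with NCAPD2, MRPL52 with the amino acid transporter SLC7A7 (-1.55) and MRPL57 with the kinetochore gene SKA3 (-0.57). Partners that rose faced members that did not pass, such as GGA3 (0.73) beside MRPS7. In 1 pair the genes went opposite ways, MRPL32 rising and the proteasome gene PSMA2 falling (-0.37, edgeR adjusted p = 0.00872). MRPS11 and MRPL46 face each other, and MRPS11 fell (-0.33) while MRPL46 did not pass (0.06). Exon bases were shared with another gene by 34 members, and 42 members had pseudogene rows of the same symbol, 5 of which averaged at least 10 counts. Counts of members with any of these features are uncertain to that extent. In 39 members exon bases were shared or a pseudogene averaged at least 10 counts. Among the members outside those 39, some of which have pseudogene rows with fewer counts, 10 of 26 large subunit genes fell and none rose (median -0.15), and 5 of 12 small subunit genes fell and 1 rose (median -0.19).

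Promoters of 68 members were found in RefSeq (GRCh38.p14), each from 250 bases before to 50 bases after the annotated start, and were searched on both strands for short motifs. The 9 bases AAGATGGCG, the core bound by the zinc finger protein YY1, were present in 13 of 68 (19.1%). They were in 4.09% of 9351 promoters of mRNA rows tested and 1.85% of all 27305 promoters. Among 70 promoters of cytosolic ribosomal protein genes they were in 6 (8.57%). In 10 of the 13 the motif ran on the gene's own strand and began 6 to 35 bases after the start. All 3 members that rose carried it, although MRPL32 passed in only 4 of 14 alternative analyses. It was also in 2 of 24 that fell (MRPL42 and MRPL52) and 8 of 41 that did not pass. Among all mRNA promoters it was in 4.36% of those that rose and 3.66% of those that fell. The promoters of the 3 genes that rose and of the gene with the largest fall are given 5′ to 3′ on the gene's strand. Capitals mark AAGATGGCG or its reverse complement in the first 3, and the ETS motif CCGGAAG or its reverse complement in MRPL51.
MRPS30, chr5:44808697-44808996, plus strand, motif from base 13 to 21 after the start: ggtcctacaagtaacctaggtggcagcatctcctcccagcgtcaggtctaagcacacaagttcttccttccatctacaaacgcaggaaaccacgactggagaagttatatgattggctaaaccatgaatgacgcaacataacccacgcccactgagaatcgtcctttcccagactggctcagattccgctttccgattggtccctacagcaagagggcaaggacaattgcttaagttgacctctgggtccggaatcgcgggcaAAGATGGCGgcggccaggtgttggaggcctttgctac
MRPS18A, chr6:43687742-43688041, minus strand, motif from base 9 to 17 after the start: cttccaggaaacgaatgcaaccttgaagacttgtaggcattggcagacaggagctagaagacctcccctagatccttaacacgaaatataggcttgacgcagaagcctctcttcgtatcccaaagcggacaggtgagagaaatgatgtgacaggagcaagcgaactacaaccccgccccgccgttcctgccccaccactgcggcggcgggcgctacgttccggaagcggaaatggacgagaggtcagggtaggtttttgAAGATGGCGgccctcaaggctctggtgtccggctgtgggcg
MRPL32, chr7:42932126-42932425, plus strand, reverse complement from base -223 to -215: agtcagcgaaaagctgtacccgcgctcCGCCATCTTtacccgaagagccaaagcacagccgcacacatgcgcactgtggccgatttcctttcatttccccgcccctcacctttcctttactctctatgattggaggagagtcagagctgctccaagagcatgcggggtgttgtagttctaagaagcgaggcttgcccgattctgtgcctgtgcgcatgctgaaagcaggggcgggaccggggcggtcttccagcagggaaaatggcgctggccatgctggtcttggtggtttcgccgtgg
MRPL51, chr12:6493213-6493512, minus strand, both orientations: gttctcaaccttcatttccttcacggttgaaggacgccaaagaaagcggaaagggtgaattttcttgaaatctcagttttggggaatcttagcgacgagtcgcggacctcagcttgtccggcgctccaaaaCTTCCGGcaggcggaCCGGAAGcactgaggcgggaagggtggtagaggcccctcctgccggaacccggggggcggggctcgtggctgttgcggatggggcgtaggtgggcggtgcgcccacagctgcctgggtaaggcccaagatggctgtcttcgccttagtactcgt
In MRPL32 the match lies far before the start and in the other orientation, unlike those of MRPS30 and MRPS18A. MRPS18A also holds CCGGAAG, left in lower case. The ETS motif, the core bound by GABPA and its relatives, was in 28 of 68 member promoters (41.2%), against 19.5% of mRNA promoters tested. The cytosolic ribosomal protein promoters were nearer to the members, with the ETS motif in 23 of 70 (32.9%). It was in 12 of the 24 members that fell, 15 of the 41 that did not pass and 1 of the 3 that rose. Among all mRNA promoters it was in 19.8% of those that fell and 15.5% of those that rose. The NRF1 half-site TGCGCA was in 14 (20.6%, against 13.6%), the full NRF1 palindrome, which does not contain those letters, in 1 (1.47%, against 2.37%), the E-box CACGTG in 6 (8.82%, against 10.3%) and the GC box GGGCGG in 41 (60.3%, against 71.4%). The cAMP response element TGACGTCA was in none, against 3.22%. Of the 70 cytosolic ribosomal protein promoters, the NRF1 half-site was in 11 (15.7%), the E-box in 4 (5.71%), the GC box in 37 (52.9%) and TGACGTCA in 3 (4.29%). These matches are descriptions of the letters in a fixed window and say nothing of binding in these cells.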

How the data were processed

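Total RNA of 6 A549 libraries was extracted with Trizol, made into libraries (Ion Total RNA-Seq Kit) and sequenced single-end on an Ion Proton, per the labels' protocols. The values deposited by the authors are raw whole-number counts for each gene. GRCh38 is named per the submitters' processing notes. The sources used here name no aligner, counter, annotation, use of strand or handling of multiply mapped reads.

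Genes passing filterByExpr (15614) were fitted in edgeR 4.0.16 (R 4.3.3) with TMM scaling (factors 0.975 to 1.02), group as the only term, glmQLFit and glmQLFTest, and Benjamini-Hochberg adjustment at a threshold of 0.05. Fold changes come from that fit. CPM were computed on scaled library sizes, with SD over 3 libraries. The procedure was also run on simulated data, whose outcome is not reported here. Transcript lengths are those of the longest GENCODE release 29 transcript paired with a RefSeq mRNA, chosen after the data were seen. Positions and promoters are from RefSeq, GRCh38.p14. The members, gene lists and motifs were chosen with earlier results of these data known.

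Genes were named by rule: SNHG17, up to 5 rises and 5 falls per subunit among genes past the threshold with a mean of at least 5 CPM, the 2 highest and 1 lowest levels per kilobase in each subunit, 4 members with a disputed subunit, all subunits with other names, and up to 4 genes of each other list by smallest p. Alternatives were other scalings, DESeq2 1.42.0, limma 3.58.1 (voom), other low-count filters, a replicate block, leaving out each library and another subunit assignment.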

Additional observations from a re-analysis of the deposited data

How the results depend on the processing

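The members' median log2 fold change kept its sign in all 14 alternative analyses. The number that fell was 22 to 26 under the alternative scalings, tests and filters. Leaving out 1 library gave 10 to 24 lower members, 10 of them without si-SNHG17 replicate 1, and 1 to 6 higher members. Scaling by library totals alone gave 6 higher members and 22 lower; it moved the median of all genes from 0.01 to 0.05, and that of the members to -0.10. In the large subunit the lower genes numbered 5 to 14 and in the small subunit 5 to 10 with 1 library left out. In the 4 lists of other nuclear genes, 13 genes were higher, and 7 to 14 with 1 library left out (7 without si-NC replicate 2). The difference between the groups in the ratio of summed large to summed small subunit counts was -0.047 by symbol and 0.0177 by structure. Among the genes named by rule, signs reversed with 1 library left out for MRPS26 (-0.0783 to 0.0319), MRPS36 (-0.1000 to 0.107) and GADD45GIP1 (-0.153 to 0.0534), none of which had passed. Other members that did not pass also ranged across 0 over the 14 alternative analyses, such as MRPL38 (-0.153 to 0.076) and MRPL46 (-0.035 to 0.143). The cause was not tested. Of 671 values for named genes, 623 kept their direction and side of the threshold, 39 lost the threshold, 4 gained it and 5 changed sign.

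Same-numbered libraries did not deviate together (correlations 0.06, -0.11 and -0.09 across 15614 genes, against up to 0.21 for other pairs). With 3 libraries per group, this cannot exclude that the numbers pair the libraries. With a replicate block 22 members were lower and 2 higher, all 24 among the 29 without it. Counts were low for MRPS24, MRPL23 and MRPL19, whose standard errors were at least 0.235. Each of them shares exon bases with another gene, and whether that lowered their counts was not tested. MRPS24 was left out by a mean of at least 1 CPM.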
